A study of Mus musculus with 18 samples.

Results

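The genes described here are 8 components of fibroblast growth factor (FGF) signalling: the ligands Fgf4, Fgf8 and Fgf15, the receptors Fgfr1, Fgfr2, Fgfr3 and Fgfr4, and the adaptor Frs2. They were taken by name, and every peak that overlapped an annotated exon of one of them by at least 1 bp was collected, together with the rows of the authors' final peak lists that carried their symbols. Of the 8, 6 are among the 15965 genes with an exonic peak in any of 7 libraries, and Fgf8 and Fgf15 had none. The data are m6A-seq, in which RNA fragments that carry N6-methyladenosine are pulled down with an antibody and sequenced beside the input RNA, and places with more reads in the pull-down are called as peaks. FGF ligands bind receptor tyrosine kinases with the help of heparan sulfate, and Frs2 docks on the active receptor and passes the signal through Grb2 and Sos to Ras and the kinase ERK. In mouse embryonic stem cells Fgf4, signalling mainly through Fgfr1 and Fgfr2, drives cells out of the naive state, and the exit is held back in culture by blocking MEK, the kinase above ERK.

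The study measured C57BL/6 mouse cells. The embryonic stem cells (ESCs) are a line labelled BVSC, grown without serum in N2B27-based medium with LIF and the inhibitors CHIR99021 (1 to 3 µM, against GSK3) and PD0325901 (1 µM, against MEK), so the medium acts on the ERK branch downstream of the receptors. Embryoid bodies (EBs), aggregates of differentiating BVSC cells, were kept for 8 to 21 days in medium with serum, for which neither inhibitor is listed, and fibroblasts (MEFs) came from an E13.5 embryo. The other ESCs were a knockout of Mettl3, the enzyme that places m6A on mRNA; its labels name neither the line nor the clone, its growth description is that of all ESCs, and it is 1 library. The EB label does not say on which day each replicate was taken, and an EB holds many cell types. Of 18 samples in 8 groups, the 7 pull-down libraries with a peak list of their own were used: ESC A, B and C, EB A, B and C, and the knockout. MEFs entered through the authors' final list alone. The design text calls the replicates of ESCs and EBs biological.

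A peak list holds positions and no score, so depth is unknown and neither the level of an RNA nor the share of its copies that carry m6A can be read from it. A gene can lack a peak because it is not methylated or because it has too little RNA, and these cannot be told apart. The graded value given below is the number of exonic bases of a gene that lie under peaks, here called covered bases. The lists differed in size: ESC A held 10515 peaks and EB C 12364, against 17698 to 21509 in the other 4 wild-type libraries and 2043 in the knockout, and the peaks of ESC A had the largest median width (229 bp against 162 to 181 bp). Mettl3 had 0 covered bases in every library, so the peaks do not check the knockout. Of 8 ESC marker genes, 5 to 7 had a peak in each ESC library, 5 to 7 in each EB library and 5 in the knockout. Of 7 endoderm markers, 2 to 5 had one in ESCs and 6 to 7 in EBs. Of 6 mesoderm markers, 1 to 4 had one in each EB library (among Cdh5, Tal1, Hand1 and Kdr) and 0 in each ESC library. The other mesoderm markers, T and Mesp1, had none in any library, and the final EB list held 0 of the 6. Of 4 ectoderm markers, 0, 2 and 3 had a peak in ESC A, B and C and 1, 2 and 2 in EB A, B and C. The MEF final list held 2 of 9 fibroblast markers, Thy1 and Twist1, and none of the collagen genes, while ESC B and each of EB A and EB B held 5 of the 9.

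The 8 genes fell into 3 with a peak in each of the 6 wild-type libraries (Fgf4, Fgfr1 and Frs2), 3 with a peak in some of them (Fgfr2, Fgfr3 and Fgfr4) and 2 with none (Fgf8 and Fgf15). Over all protein-coding genes, 19.5% had a peak in all 6 libraries and 39.9% in none. By library, 3, 5 and 5 of the 8 had a peak in ESC A, B and C, 5, 6 and 4 in EB A, B and C, and 1 in the knockout. The corresponding shares of all 21951 protein-coding genes were 25%, 44.1% and 39.2% in ESCs, 40.3%, 45.1% and 31.5% in EBs, and 8.37% in the knockout. The fewest genes were seen in ESC A and EB C, the wild-type libraries with the shortest lists, for the 8 genes as for all genes. The final lists named Fgf4, Fgfr1 and Frs2 for ESCs, the same 3 and Fgfr2 for EBs, and Fgfr1 and Frs2 for MEFs.

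**Figure D1:**
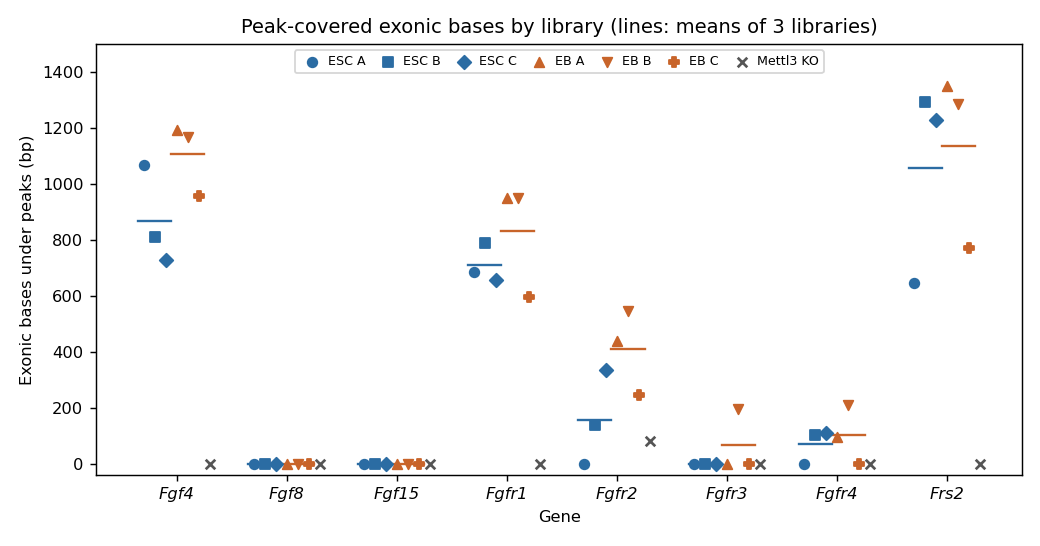
Exonic bases under peaks (bp, vertical axis) for each of the 8 genes, 1 point per library, with lines at the means of the 3 ESC and 3 EB libraries. Fgf4, Fgfr1 and Frs2 are covered in all 6 wild-type libraries, Fgf8 and Fgf15 stay at 0, and the only knockout point above 0 is the 79 bp of Fgfr2, which lie in an exon that overlaps Ctbp2.

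Fgf4 is the FGF that embryonic stem cells make themselves. It lies on the plus strand of chromosome 7 (mm10, 144847367 to 144865243), and its mRNA of 3030 nt in 3 exons has a 3′ UTR of 2302 nt. Each wild-type library had 1 peak in it, in exon 3, centred 409 to 579 nt after the stop codon. It covered 1068, 810 and 728 bases in ESC A, B and C, 1194, 1168 and 957 bases in EB A, B and C, and none in the knockout. These were among the widest peaks of every list, wider than 98.9% to 99.5% of the peaks in the same library.

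The mean was 869 ± 177 covered bases in ESCs and 1106 ± 130 in EBs (SD, n = 3 each), a difference of 238 bases. ESC A lay above EB C, so the groups overlapped, and the difference did not pass the exact permutation test over libraries (2-sided p = 0.2, adjusted p = 1 over 15897 genes with a peak), which cannot go below 0.1 with 3 libraries against 3. Without ESC A or without EB C the groups no longer overlapped, and the difference became 337 and 312 bases. In those settings 7.55% and 23.2% of all genes were likewise higher in every EB library. Divided by the covered bases of the whole library, the order changed: ESC A was highest at 429 bases per 1000000 covered bases and ESC B lowest at 199, with 211 in ESC C and 270, 223 and 342 in EB A, B and C. The final lists gave 1 Fgf4 peak of 1068 bp in ESCs and 1 of 1193 bp in EBs, and none in MEFs.

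The peaks differed mainly at their upstream edge. In ESC A and the 3 EB libraries they began 596 to 663 nt from the transcript start, inside the coding sequence, and ran over the stop codon, which ends at nt 728. In ESC B and ESC C they began at nt 903 and 901, past the stop codon. The stretch under all 6 peaks was chr7:144863116-144863828, 713 nt from 175 to 887 nt after the stop codon.

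Most m6A lies in a short context in which a purine, a purine, the methylated A and a C follow each other, and GGAC is its most frequent form. Motifs were searched on the transcript strand. The shared stretch of Fgf4 held GGAC 6 times, or 0.842 per 100 nt against 0.561 in the rest of the mRNA. Windows of the same length centred on all mRNA peaks of the 6 libraries had a median of 4, and 19.8% of them held at least 6. These windows were longer than most peaks, so they also held sequence outside peaks, while the Fgf4 stretch lay wholly under them. The stretch also held AGAC 6 times, GAAC 7 times and AAAC 6 times. These make 25 sites of the 4 forms, which do not overlap, against a median of 13, and 0.545% of the windows held at least as many. The count of the 4 forms was chosen after seeing the data, so this share is not a test. The 6 GGAC sites are shown because they are the candidate positions that all 6 peaks share. Each line gives 25 nt (GRCm38, plus strand) with GGAC in capitals, and its distance is from the last base of the stop codon.
Fgf4, 349 nt past the stop codon (chr7:144863280-144863304): ggcctgcctgGGACctctgaggcag
Fgf4, 370 nt past (chr7:144863301-144863325): gcagtgagaaGGACcctgagcgttc
Fgf4, 461 nt past (chr7:144863392-144863416): tttactccagGGACagaagtcctcc
Fgf4, 538 nt past (chr7:144863469-144863493): tcatcttcttGGACctaccggatag
Fgf4, 595 nt past (chr7:144863526-144863550): tgccatttttGGACtggccaacagg
Fgf4, 663 nt past (chr7:144863594-144863618): aactaggaatGGACaagagggtgtg
The site 595 nt past the stop codon is the only GGACT of the stretch. All 6 sites lie under every peak, so the peaks cannot tell which of them carries m6A.

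The third exon of Fgf4 is also known for a DNA element, the enhancer that Sox2 and Oct4 bind together in embryonic stem cells. Its letters, CTTTGTT and, after 3 bases, ATGCTAAT, were found 1453 nt past the stop codon (chr7:144864394-144864411), 392 bp beyond the end of the longest-reaching library peak, and no Fgf4 peak of a library or a final list covered them.
Fgf4 enhancer letters, in capitals: aactCTTTGTTtggATGCTAATggga
Searched on both strands with this spacing, which was read from the site itself, 1 of 21851 mRNAs held them, that of Fgf4.

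Fgf8 and Fgf15 are ligands of the later embryo, Fgf8 in gastrulation and patterning and Fgf15 as the mouse counterpart of human FGF19. Fgf15 lies on chromosome 7 just downstream of Fgf4 (144896531 to 144900953, plus strand) and Fgf8 on chromosome 19 (45736798 to 45742915, minus strand). Neither had a peak in any of the 7 libraries or the 3 final lists, in exons or in introns. Both mRNAs are shorter than that of Fgf4, 1810 nt for Fgf15 and 1117 nt for Fgf8, with 3′ UTRs of 1005 and 192 nt. Their RNA level was not measured here.

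Fgfr1 is the main FGF receptor of naive embryonic stem cells. It lies on the plus strand of chromosome 8 (25513654 to 25575718), and its mRNA of 5025 nt in 18 exons has its coding sequence from nt 760 to nt 3228. All 6 wild-type libraries had a peak in the 5′ UTR, in exon 1, and another over the stop codon, in exon 18. A further peak in the 3′ UTR, centred 568 to 588 nt past the stop codon, was called in ESC B, ESC C and EB A at 110, 160 and 159 bp. Together they covered 686, 789 and 658 bases in ESC A, B and C, and 948, 949 and 596 in EB A, B and C. The means were 711 ± 69.0 and 831 ± 204 covered bases (SD, n = 3 each). EB C was the lowest of all 6 and EB A and B were the highest, so the groups overlapped (difference 120 bases, exact permutation p = 0.4, adjusted p = 1). Without EB C the difference was 238 bases and the groups no longer overlapped, with 23.2% of all genes likewise higher in EBs. Without EB A or EB B the difference was 61.5 or 61 bases.

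The peak in exon 1 was 297, 279 and 275 bp wide in ESC A, B and C and 369, 481 and 380 bp wide in EB A, B and C. Each EB peak was thus wider than each ESC peak, with means of 284 ± 11.7 and 410 ± 61.7 bp (SD, n = 3 each). This was seen while describing the gene and was not tested, and the share of all peaks that separate by width is not given here. For covered bases, another measure, 6.01% of all genes were higher in every EB library than in every ESC library. That share includes genes that lack a peak in some libraries, so it does not say how often widths separate. The peaks began within 48 bp of each other and differed at the downstream edge, which lay 314 to 354 nt from the transcript start in ESCs and 398 to 500 nt in EBs. In rank, they were wider than 67%, 79.2% and 79.9% of the peaks of their library in ESCs and than 80.6%, 87.4% and 86.7% in EBs. The peak over the stop codon showed no such order, at 389, 400 and 223 bp in ESCs and 420, 468 and 216 bp in EBs.

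The stretch of exon 1 under all 6 peaks was chr8:25518825-25519072, 248 nt from nt 67 to nt 314 of the 5′ UTR. It held GGAC 4 times, 3 of them as GGACT. Windows of this length at all mRNA peaks had a median of 1, and 9.38% held at least 4. With AGAC, GAAC and AAAC it held 9 sites of the 4 forms, against a median of 5. The stretch under all 6 peaks at the stop codon was chr8:25573867-25574078, from 54 nt before to 157 nt after its last base. It held GGAC 2 times, and 43.9% of windows of that length held at least as many. Of the 4 forms together it held 3, below the median of 4, and 82.8% of windows held at least as many. The sites are shown for the same reason as those of Fgf4, with GGAC in capitals (GRCm38, plus strand).
Fgfr1, nt 135 of the mRNA (chr8:25518883-25518907): tgcgtgcagaGGACccgggctgcgc
Fgfr1, nt 173 (chr8:25518921-25518945): cgagacgtccGGACtggactgagac
Fgfr1, nt 178 (chr8:25518926-25518950): cgtccggactGGACtgagactgtgc
Fgfr1, nt 266 (chr8:25519014-25519038): cggagaccgaGGACttttctcaggt
Fgfr1, 17 nt before the last base of the stop codon (chr8:25573894-25573918): tgccaacagtGGACtcaaacggcgc
Fgfr1, 71 nt past it (chr8:25573982-25574006): tccccttgttGGACacactgccttt
The sites at nt 173 and nt 178 lie 5 nt apart and are both GGACT. Further GGAC sites of exon 1, at nt 420 and nt 434, lay under the peak of EB B and under no ESC peak.

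The final MEF list had a row at the start of Fgfr1 and none at its stop codon. Its 1 Fgfr1 peak was 327 bp wide and reached from nt 54 to nt 380. The final ESC list held 3 Fgfr1 peaks, of 319 bp at the start, 446 bp at the stop codon and 160 bp in the 3′ UTR, and the final EB list held 2, of 484 bp at the start and 512 bp at the stop codon. The per-library spread in MEFs was not analysed here.

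**Figure D2:**
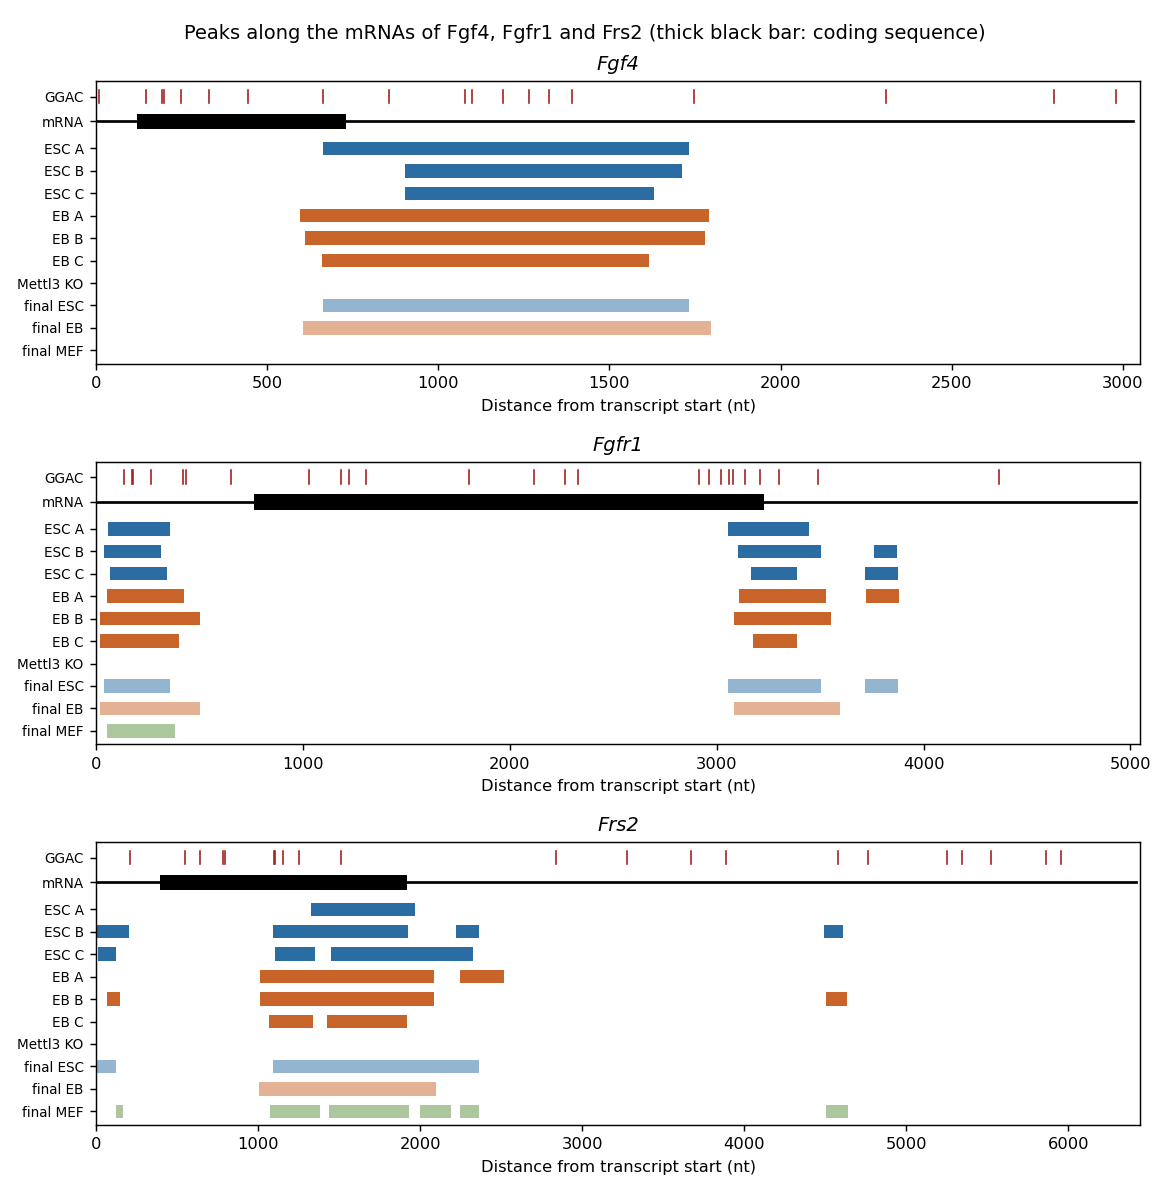
Peaks along the mRNAs of Fgf4, Fgfr1 and Frs2, with distance from the transcript start in nt on the horizontal axis and 1 row per peak list (ESC blue, EB orange, MEF green, final lists pale); the thick black bar is the coding sequence and red ticks are GGAC. The 6 wild-type peaks of Fgf4 share a stretch of the 3′ UTR from 175 nt past the stop codon, those of Fgfr1 share exon 1 and the stop codon, those of Frs2 share the end of the coding sequence, and the knockout rows are empty.

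Frs2 is the adaptor that links FGF receptors to Grb2 and to the phosphatase Ptpn11. It lies on the minus strand of chromosome 10 (117069427 to 117148534), and its mRNA of 6420 nt in 10 exons has its coding sequence from nt 392 to nt 1918 and a 3′ UTR of 4502 nt. Its leading peak lay in exon 10 in all 6 wild-type libraries, was centred in the coding sequence and ran past the stop codon, reaching nt 2324 in ESC C and nt 1919 to 2086 in the others. The widest peak there was 645, 835 and 875 bp in ESC A, B and C and 1074, 1077 and 499 bp in EB A, B and C, wider than 93.7% to 99.5% of the peaks of the same library. In ESC C and EB C a narrower coding peak of 246 and 270 bp lay just upstream, where ESC B, EB A and EB B had 1 unbroken peak.

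All peaks together covered 645, 1293 and 1230 bases of Frs2 in ESC A, B and C and 1349, 1287 and 769 in EB A, B and C. The low values were ESC A and EB C, and the groups overlapped over nearly their whole range. The means were 1056 ± 357 and 1135 ± 318 (SD, n = 3 each), a difference of 79 bases (exact permutation p = 0.6, adjusted p = 1). The difference was -127 bases without ESC A and -28 without EB A, and at most 262 bases, without EB C.

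The stretch of Frs2 under all 6 leading peaks was chr10:117073928-117074397, 470 nt that end 1 nt past the stop codon. It held GGAC 1 time, against a median of 2 in windows of the same length, which were again longer than most peaks. Of these windows 91.2% held at least 1. AGAC was found 6 times in it, GAAC 2 times and AAAC 2 times, 11 sites of the 4 forms against a median of 9. Frs2 thus differed from Fgf4 and from the start of Fgfr1, whose shared stretches held more GGAC than the median window. Its first 300 nt are shown (chr10:117074098-117074397, GRCm38, minus strand, nt 1450 to 1749), with the 5 sites of the 4 forms in capitals.
Frs2, coding stretch under all 6 peaks: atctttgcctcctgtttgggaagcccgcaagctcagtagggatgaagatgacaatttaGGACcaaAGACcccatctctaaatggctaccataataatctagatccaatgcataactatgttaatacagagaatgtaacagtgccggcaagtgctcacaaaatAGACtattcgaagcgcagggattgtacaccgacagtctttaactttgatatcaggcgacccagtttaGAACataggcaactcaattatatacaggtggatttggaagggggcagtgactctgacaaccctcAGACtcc

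Elsewhere on Frs2 the libraries differed. A peak at the transcript start was called in ESC B, ESC C and EB B at 152, 145 and 93 bp, and in ESC B and EB B a further one, of 169 and 111 bp, lay in part on exon 2 of the reference mRNA and was centred just before it, in the intron. Peaks far into the 3′ UTR, centred 2630 and 2652 nt past the stop codon, were called in ESC B and EB B, the libraries with the longest lists. The MEF final list held 6 rows for Frs2, against 2 for ESCs and 1 for EBs. Those of MEFs covered the coding stretch in peaks of 489 and 304 bp and also held 3 peaks in the 3′ UTR, among them 1 centred 2652 nt past the stop codon, the place of the EB B peak. MEFs also had a peak of 110 bp that lay in part on exon 2, where ESC B and EB B had theirs.

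Fgfr2 is the receptor enriched in the primitive endoderm of the blastocyst. Its count needs a limit first. In the annotation used (GENCODE M21 basic) the gene spans 2960900 bp of chromosome 7 (130162451 to 133123350, minus strand), because 1 of its transcripts reaches exons that overlap those of Ctbp2, while RefSeq gives a gene of 104358 bp (130162451 to 130266808). Over all annotated exons, Fgfr2 had 0, 138 and 334 covered bases in ESC A, B and C, 439, 547 and 247 in EB A, B and C, and 79 in the knockout. Without the shared exons the values were 0, 0 and 216 bases in ESCs, 263, 415 and 131 in EBs and 0 in the knockout. All 79 bases of the knockout and all 138 bases of ESC B thus lay in the shared exons.

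In its own exons, Fgfr2 had a start peak in ESC C and in each EB library, 108 bp wide in ESC C and 168, 168 and 142 bp in EB A, B and C. A 3′ UTR peak was called in ESC C, EB A and EB B at 108, 95 and 261 bp. Both peaks of ESC C and the 3′ UTR peak of EB A had the smallest width found in their lists. The means over these exons were 72 ± 125 bases in ESCs and 270 ± 142 in EBs (SD, n = 3 each). ESC C lay above EB C, so the groups overlapped. Over all exons the difference was 254 bases (exact permutation p = 0.2, adjusted p = 1), and without ESC C or without EB C the groups did not overlap. In those settings 8.95% and 23.2% of all genes were likewise higher in every EB library. The final EB list held the start peak at 209 bp, and the final ESC and MEF lists held no Fgfr2 row.

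**Figure D3:**
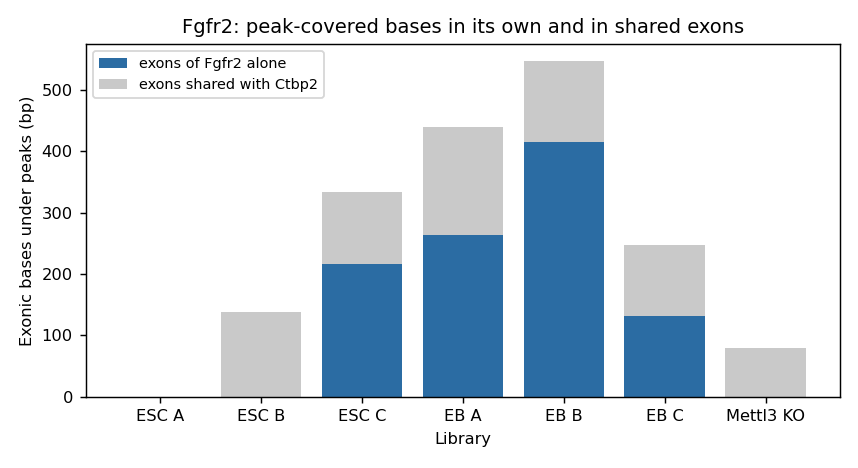
Covered bases of Fgfr2 (bp, vertical axis) in each library, split into exons of Fgfr2 alone (blue) and exons that overlap Ctbp2 (grey). ESC B and the knockout are grey only, and the 3 EB libraries keep 131 to 415 bases in the exons of Fgfr2 alone.

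Fgfr3 and Fgfr4, the receptors with the least coverage, had no row in any final list. Fgfr3 (chromosome 5, 33721674 to 33737068, plus strand) had 1 exonic peak, of 196 bp and centred 114 nt past the stop codon, in EB B, the library with the longest list. EB B also had an Fgfr3 peak of 170 bp within an intron, which the exon rule leaves out. Fgfr4 (chromosome 13, 55152640 to 55168759, plus strand) had 3′ UTR peaks of 102 bp in ESC B, 108 bp in ESC C, 95 bp in EB A and 211 bp in EB B. The first 3 had the smallest width of their lists, a width that 11.9%, 15.1% and 12.4% of the peaks of those libraries share. Their centres lay 385, 11, 302 and 328 nt past the stop codon in that order, so the peak of ESC C was at another place than the rest. ESC A and EB C, with the shortest lists, and the knockout had none. The differences between EBs and ESCs, 65.3 bases for Fgfr3 and 32 for Fgfr4, were within the spread of the libraries (exact permutation p = 1 and p = 0.9, adjusted p = 1 for both). That of Fgfr4 turned to -3 bases without ESC A and to -22.5 without EB B.

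Across all genes with a peak in at least 1 of the 6 wild-type libraries, the 3 EB libraries had more covered bases than each of the 3 ESC libraries, without overlap, for 956 of 15897 genes (6.01%), and the ESC libraries had more for 241 (1.52%). Of the 8 FGF genes, 6 could be compared and 0 fell in either class. The split over all genes depended on scaling: EBs were higher in 79.9% of the separated genes, and in 57.7% (713 against 522) after division by the covered bases of each library. No gene can pass the threshold of 0.05 in the exact test with 3 libraries against 3, and the adjusted p was 1 throughout. The order of the 6 genes by mean covered bases was the same in EBs and ESCs: Frs2, Fgf4, Fgfr1, Fgfr2, Fgfr4 and Fgfr3. Neighbours in that order overlapped between libraries, except Fgf4 with Fgfr1 in EBs, Fgfr1 with Fgfr2 in both groups and Fgfr2 with Fgfr4 in EBs. The last of these rests on the exons shared with Ctbp2, without which Fgfr2 and Fgfr4 overlapped in EBs too. This is an order of peak coverage, which does not measure the level of methylation.

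In the Mettl3 knockout 1 of the 8 FGF genes had a peak, against 8.37% of all protein-coding genes. Of 26 ESC peaks on the 8 genes, 2 were overlapped by a knockout peak, both in an Fgfr2 exon shared with Ctbp2, and 0 of the other 24 were: 3 on Fgf4, 8 on Fgfr1, 2 on Fgfr2, 2 on Fgfr4 and 9 on Frs2. Over all ESC peaks of the 3 libraries 6.19% were overlapped (2971 of 48029), so none in 24 is near the background. The 24 are not independent places, since those on Fgf4, Fgfr1 and Frs2 recur between libraries. Overlap was more frequent at transcript starts: where the centre of an ESC peak was at most 300 nt from a transcript start, 30.6% were overlapped (43.2%, 26.6% and 31.9% in ESC A, B and C). The 3 ESC peaks in exon 1 of Fgfr1, 1 place seen in 3 libraries, were centred 175 to 206 nt from the start. They had no knockout peak over them, and the nearest one lay 320923 bp away. The start peaks of Frs2 in ESC B and ESC C and of Fgfr2 in ESC C had none over them either. With 1 knockout library no test can be made. No source used here says with which tool or threshold its peaks were called, and its list is shorter and its peaks narrower (median 98 bp) than those of any wild-type library.

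Of the 42 peaks of the 8 genes in the 6 wild-type libraries whose centre lay in the exons of the reference mRNA, 30 (71.4%) had GGAC within 50 nt of the centre, against 54.9% of all mRNA peaks. By library the members' share was 75%, 66.7% and 50% in ESC A, B and C and 71.4%, 88.9% and 80% in EB A, B and C. Over all mRNA peaks it was 59%, 55.6% and 54.3%, and 53.1%, 52.2% and 58.6%. The share was higher for the FGF genes in 5 of the 6 libraries, ESC C being the exception. Since the same places on Fgf4, Fgfr1 and Frs2 recur in every library, the 42 peaks are not 42 independent sites, and no test was made. Within 25 nt of the centre the shares were 35.7% and 33.5%.

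The genes whose covered bases followed those of Fgf4 most closely over the 7 libraries, by the sum of absolute differences in log2(covered bases + 1), were Polr2m (0.36), Ckap4 (0.58) and Ptch1 (0.65). Polr2m had 1018, 799 and 683 covered bases in ESC A, B and C, 1088, 1152 and 973 in EB A, B and C and 0 in the knockout. For Fgfr1 they were Fancf (0.48), Gna13 (0.53) and Tgif2 (0.55). The knockout was 1 of the 7 libraries compared, so the 0 covered bases of the chosen genes there follow largely from how they were chosen.

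The wider pathway was read from 4 lists of named genes. Among 19 other FGF ligands, 2 had a peak in all 6 wild-type libraries, Fgf3 and Fgf10, and 7 had none in any. Over all protein-coding genes these shares were 19.5% and 39.9%. Of the 19, 0 were separated between EBs and ESCs in either direction (6.01% of all genes were higher in EBs and 1.52% in ESCs). Fgf3 covered 354, 523 and 121 bases in ESC A, B and C and 587, 452 and 266 in EB A, B and C. Fgf10 covered 142, 278 and 362 bases in ESCs and 252, 563 and 259 in EBs, and the groups overlapped for both ligands. Fgf5, a marker of the epiblast after implantation, had 0, 0 and 109 bases in ESCs and 106, 0 and 559 in EBs, and Fgf18 was seen in ESC B, EB A and EB B. No other FGF ligand had a peak in the knockout, where 8.37% of all protein-coding genes had one.

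Among 24 co-receptors and heparan sulfate enzymes, which help the ligands bind, 12 had a peak in all 6 libraries and 0 had none. Over all protein-coding genes these shares were 19.5% and 39.9%. In the knockout 3 had one (Sdc1, Sdc4 and Ext2), against 8.37% of all protein-coding genes. Of the 12 seen in every wild-type library, those with the most coverage were Hs6st1, Extl3, Glce and Ext1, enzymes that build or sulfate the heparan chain. Hs6st1 covered 2034, 2160 and 1733 bases in ESC A, B and C and 2343, 2870 and 1649 in EB A, B and C, and like Extl3, Glce and Ext1 it overlapped between groups. In 5 of the 24, named after their values were seen, each EB library had more covered bases than each ESC library, against 6.01% of all genes, and in 0 the reverse. These were Klb, the co-receptor of Fgf15 and Fgf21; Flrt3, a membrane protein that binds Fgfr1; Gpc3, a glypican; Hs2st1, a sulfotransferase; and Sulf1, a sulfatase. Klb covered 0, 455 and 426 bases in ESCs and 2123, 2159 and 600 in EBs. Flrt3 covered 0, 714 and 366 bases in ESCs and 2426, 2231 and 1094 in EBs. Both lacked a peak in ESC A and were lowest among EBs in EB C. For all 5 the exact permutation p was 0.1, the smallest possible, with adjusted p = 1. After division by the covered bases of each library 4 of the 5 stayed separated, all but Hs2st1 (4.49% of all genes were then higher in EBs). In that setting 2 other genes of the list had more in ESCs (3.28% of all genes). By number of peaks 2 of the 5 stayed separated, Gpc3 and Sulf1, and Klb and Flrt3 did not (1.8% of all genes). The count for the list was 8 without ESC B (13.8% of all genes) and 13 without EB C (23.2%).

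**Figure D4:**
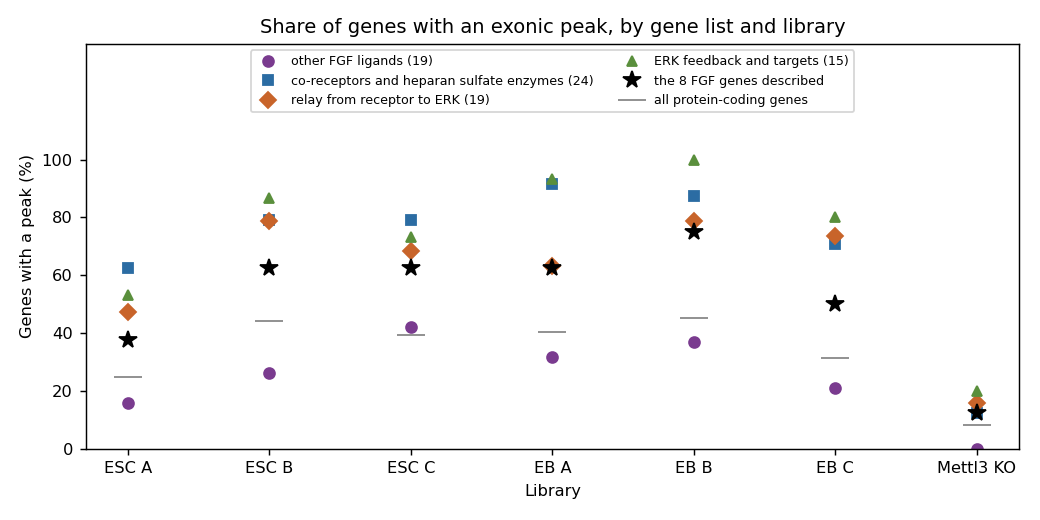
Share of genes with an exonic peak (%, vertical axis) in each library for the 8 FGF genes (stars), 4 lists of pathway genes (coloured symbols, list size in brackets) and all protein-coding genes (grey dashes). In the 6 wild-type libraries the 8 FGF genes sit above the grey dash, and so do the co-receptors, the relay and the feedback genes, while the other FGF ligands lie below it except in ESC C.

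Among 19 genes of the relay from receptor to ERK, 8 had a peak in all 6 libraries, and 1 had none (Mapk3, which codes for ERK1). Over all protein-coding genes these shares were 19.5% and 39.9%. Gab1 and Araf had a peak in the knockout, where 8.37% of all protein-coding genes had one. Gab1, a docking protein, covered 902, 879 and 842 bases in ESC A, B and C, 1011, 1654 and 514 in EB A, B and C, and 169 in the knockout. In covered bases Ptpn11 and Sos1 also overlapped between ESCs and EBs. Hras, named after its values were seen, was the 1 gene of the list that separated the groups (366, 376 and 271 bases against 530, 574 and 380), against 6.01% of all genes. After division by the covered bases of each library Hras did not. Ptpn11 and Plcg1, the latter also named after its values were seen, then did, both higher in EBs (4.49% of all genes). On the exons of 1 reference transcript per gene, 0 genes of the list were separated (6.12% of all genes were higher in EBs). Among 15 feedback genes and targets of ERK, 8 had a peak in all 6 libraries (19.5% of all protein-coding genes). In the knockout 3 had one (Spred2, Etv5 and Egr1), against 8.37% of all protein-coding genes. In 5 (Spry4, Dusp4, Dusp5, Dusp6 and Egr1, named after their values were seen) every EB library had more covered bases than every ESC library, against 6.01% of all genes. That count was 6 after division by the covered bases of each library (4.49% of all genes) and 3 by number of peaks (1.8%). It was 9 without ESC B (13.8%) and 13 without EB C (23.2%). Dusp6, a phosphatase that acts on ERK, covered 0, 0 and 108 bases in ESCs and 1287, 1315 and 1168 in EBs, while Spry2, an inhibitor of the pathway, covered 1206, 1077 and 813 in ESCs and 1287, 1320 and 1004 in EBs, which overlapped. The RNA levels of these genes were not measured here, and their part in these values was not tested.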

How the data were processed

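Peak positions were used as the authors deposited them: 7 lists, 1 per pull-down library, and 3 final lists with gene symbols, all in mm10 and with positions in place of scores. The tools named per the submitters' processing notes are MACS 1.4.1, TopHat2 2.0.10 and CASAVA 1.8.2, with no role or threshold; names inside 6 of the deposited lists begin with MACS2, and no source used here says how the final lists joined replicates. Peaks were laid on the exons of GENCODE M21 basic (GRCm38), and sequences were read from the RefSeq GRCm38.p6 genome with pysam 0.24.0 (Python 3.11.15, NumPy 2.4.6, SciPy 1.17.1, matplotlib 3.10.9). Positions along an mRNA and motifs refer to 1 reference transcript per gene. Covered exonic bases were compared between 3 ESC and 3 EB libraries with a 2-sided exact permutation test for every gene with a peak, adjusted by Benjamini-Hochberg, and a gene was called separated where the groups did not overlap. The separation step was tried on simulated data in which the libraries did not differ in size, unlike the lists used here.

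The members and lists were chosen with earlier results of these data known. The genes named are the 8 members, the 3 genes most like Fgf4 and Fgfr1, up to 4 genes per pathway list with the most libraries and then the most covered bases, and, chosen after their values were seen, genes that a list's small counts refer to (no peak, a knockout peak or separated groups). Spry3 had no entry in the annotation. The counts of AGAC, GAAC and AAAC, the limit of 300 nt for a start and the exclusion of exons shared with Ctbp2 were chosen after seeing the data. Of the relay genes that this rule names, 1 is not reported here.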

Additional observations from a re-analysis of the deposited data

How the results depend on the processing

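The count of 956 genes with more covered bases in EBs was 286 when peaks were counted in place of bases, 2263 with the replicate block (all 3 same-letter differences above 0) and 1100 to 3637 when 1 library was left out, with 2053 without ESC B and 3637 without EB C. The count of 241 genes with more in ESCs was 522 after division by the covered bases of the library, 76 by number of peaks, 503 with the replicate block and 319 to 1205 with 1 library left out (1205 without ESC A, 575 without ESC C and 521 without EB B). Of the members, Fgf4 was separated with the block (differences of 126, 358 and 229 bases) and without ESC A. Fgfr2 was separated without ESC C, and Fgf4, Fgfr1 and Fgfr2 without EB C. Each was higher in EBs, as were 14.2% of all genes with the block and 7.55% without ESC A. The share of all genes was 8.95% without ESC C and 23.2% without EB C. Same-letter deviations correlated at -0.0165, 0.0758 and 0.0548 across genes, and those of other letters at -0.0907 to 0.0350. These weak values do not settle whether the letters pair the samples. The 2 ESC peaks of members overlapped by a knockout peak became 0 without the exon shared with Ctbp2 and 1 to 2 with 1 ESC library left out. The share of member peaks with GGAC was 35.7% within 25 nt and 31.0% for GGACT (22.2% of all mRNA peaks). The 28 pairs of a member and a library with a peak, of 48, were 23 to 29 under the other rules of overlap. Depth behind a peak is unknown, so a missing peak has no detection limit. Except where a smaller set of libraries is the change itself, the cause was not tested.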
